A study of Rattus norvegicus with 6 samples.

Results

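The S phase and DNA replication genes are those that copy the genome and supply what copying needs: origin binding and helicase loading, helicase activation, polymerases with their clamp and clamp loader, Okazaki fragment maturation, deoxynucleotide supply, and the E2F and cyclin E genes that start S phase. A list of 48 such genes was matched by symbol to features of the array annotation that carry exactly 1 gene symbol, and where a gene had several, the brightest on average over the 6 arrays stood for it. In all, 45 of the 48 were measured, among 18166 genes. Rrm1, Tk1 and E2f2 were not analysed here. No filter on low values was applied, so all 45 were tested.

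RNA was measured on 6 Affymetrix arrays in cultures of adipose-derived stem cells (ADSCs), the stromal precursors of fat cells, isolated from inguinal fat (female Wistar rats, 2 weeks old). The 3 induced arrays came from ADSCs kept for 7 days in α-MEM with 20% fetal bovine serum, 0.5 mM 3-isobutyl-1-methylxanthine (an inhibitor of phosphodiesterases), 1 µM dexamethasone (a synthetic glucocorticoid) and 5 µg/ml insulin. The 3 control arrays came from ADSCs grown in α-MEM with 10% serum and none of the inducers, so serum differed together with the inducers. The labels call the arrays of each group biological replicates. Whether each culture came from its own animal is not stated in them, so p-values measure only the spread between these samples, which may not be that between animals. How long control cells were cultured is likewise not stated in the labels.

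As background, replication origins are marked by the origin recognition complex, onto which Cdc6 and Cdt1 load the ring of Mcm2 to Mcm7, the core of the replicative helicase. The kinase made of Cdc7 and Dbf4 then allows Cdc45 and the GINS complex to join the ring and open the DNA. Most of these genes are transcribed as cells pass from G1 into S phase, when E2F factors are released from the retinoblastoma family of pocket proteins. In cultured preadipocyte lines, induction is followed by an early wave of division, after which the cells leave the cycle and differentiate.

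Promoters of the replication genes often carried the E2F consensus. The genes were chosen by symbol and not by sequence. Because E2F control of S phase genes is background knowledge, the share with a match is not independent of that choice. Promoter windows (250 bases before and 50 from the start site onward) came from RefSeq on the rat assembly GRCr8, and 38 of the 45 genes had at least 1. The consensus was searched on both strands in its 4 spellings, TTTCCCGC, TTTCGCGC, TTTGCCGC and TTTGGCGC, and overlapping matches were counted apart. It was present for 16 of the 38 genes (42.1%), against 460 of 14503 genes on the array with a window (3.17%) and 651 of 27457 genes in the whole table (2.37%). The replication windows were also richer in G and C, with a median of 61.0% and 23 CpG per window, against 57.0% and 15 over windows of genes on the array. A match is a string of letters in the window and was not tested for binding.

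The matches below are a selection, from genes of the helicase ring and from Gins1, Rfc3 and Pole. Not shown are another match in Mcm7 and the matches in Cdt1, Tyms, Gins3, Uhrf1, Rpa2, Lig1, Dnmt1 and Pola1. Capitals mark the consensus on either strand, each line runs 5′ to 3′ on the gene's strand, and coordinates are those of GRCr8.
Gins1, chr3:160184877-160184924, plus strand: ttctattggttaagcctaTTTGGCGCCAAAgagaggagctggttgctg
Mcm2, chr4:122918079-122918126, minus strand: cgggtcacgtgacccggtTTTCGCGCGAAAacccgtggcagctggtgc
Mcm6, chr13:42404462-42404509, minus strand: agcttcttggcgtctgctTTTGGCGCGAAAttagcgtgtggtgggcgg
Mcm5, chr19:13488582-13488629, plus strand: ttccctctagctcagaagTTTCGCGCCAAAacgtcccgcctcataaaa
Mcm5, chr19:13488787-13488830, plus strand: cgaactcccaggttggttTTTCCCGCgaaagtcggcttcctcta
Mcm3, chr9:30733722-30733770, minus strand: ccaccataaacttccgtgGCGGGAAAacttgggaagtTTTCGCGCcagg
Mcm7, chr12:22163205-22163248, minus strand: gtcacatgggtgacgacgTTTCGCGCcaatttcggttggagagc
Rfc3, chr12:5836547-5836592, plus strand: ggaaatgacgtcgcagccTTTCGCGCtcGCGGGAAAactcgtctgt
Pole, chr12:52053639-52053682, minus strand: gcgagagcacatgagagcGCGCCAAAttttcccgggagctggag

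In Gins1, Mcm2, Mcm6 and Mcm5, matches on both strands overlapped in a run of 12 capitals, and these were the 4 replication genes with such an overlap. All 5 helicase ring genes with a window (Mcm2, Mcm3, Mcm5, Mcm6 and Mcm7) held a match. Of the 26 matches in all, 18 lay from 60 bases before the start site onward, in 13 genes. The consensus was also present for 23 of 48 other replication factors with a window (47.9%), 4 of 19 E2F, pocket protein and CDK regulators (21.1%) and 1 of 15 mitosis genes (6.67%). The differences between these lists were not tested. In mitosis genes TTTGAA, the cell cycle homology region, was present for 10 of 15 (66.7%), against 5 of 38 replication genes (13.2%) and 2420 of 14503 genes on the array (16.7%). The short CCAAT string was present for 23 of 38 replication genes (60.5%), 12 of 15 mitosis genes (80.0%) and 5652 of 14503 genes on the array (39.0%).

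**Figure D1:**
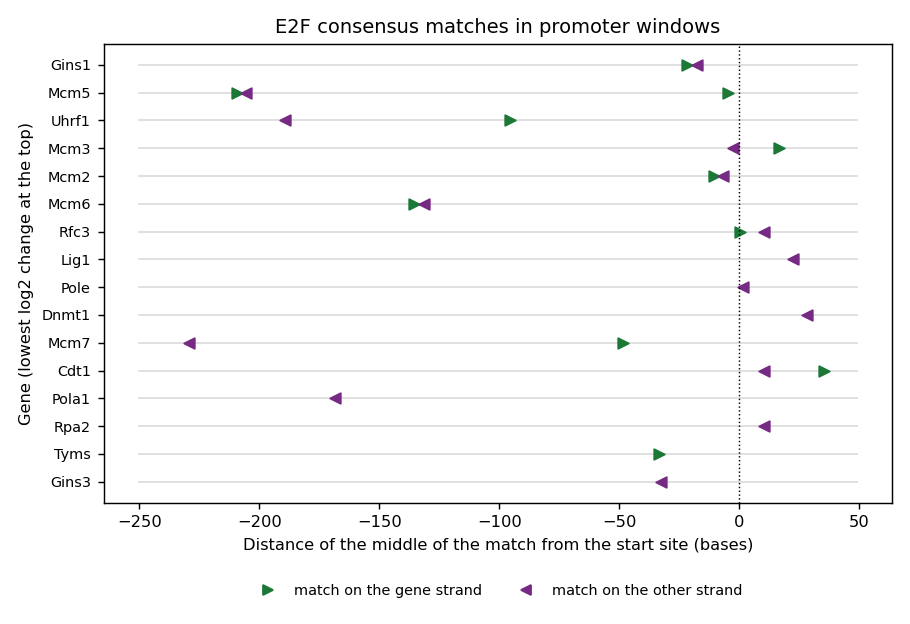
Positions of the E2F consensus in the promoter windows of the 16 replication genes that hold it, as the distance of the middle of each match from the start site in bases (x axis), with genes ordered by their change in induced cells. Of the 26 matches, 18 lie from 60 bases before the start site onward.

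Values below are the authors' log2 RMA signals, and every change is induced minus control on that scale with the standard error (SE) of limma's fit. Calls rest on limma's p after Benjamini-Hochberg adjustment over all 18166 genes, with a threshold of 0.05. A level belongs to its own feature and is not compared between genes. Array medians ran from 5.64 to 5.73 over all features. Induced replicate 3 stood apart from induced replicates 1 and 2, with r = 0.968 and 0.969 over features, against r = 0.989 between those 2 arrays, while control arrays correlated at r = 0.979 to 0.985. The 12 adipocyte markers averaged 10.68, 10.68 and 11.67 in induced replicates 1 to 3, against 8.34, 7.03 and 6.94 in control replicates 1 to 3, so control replicate 1 was the highest control array for them. Their summed linear signal ran from 29472 to 56214 in induced and from 2461 to 7551 in control cells. Of the 12 adipocyte markers, 6 were called higher, against 0.479% of all genes. The 10 stromal markers measured averaged 10.38, 10.51 and 9.33 in induced replicates, against 10.96, 10.84 and 10.86 in control ones, with summed linear signals of 15143 to 31523 in induced and 35596 to 39524 in control cells and 0 of 10 called. Cd34, a marker of these stromal cells in fresh tissue, read 4.09, 4.60 and 4.69 in induced replicates, against 4.94, 5.36 and 7.03 in control replicates. Only its value in control replicate 3 lay above the array medians. The 4 endothelial markers measured summed to 117 to 128 in induced and 132 to 172 in control cells, and the 6 mural markers to 442 to 521 in induced and 385 to 688 in control cells, with none of these 10 called. The part of these lists in the values of the replication genes was not tested.

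Most replication genes had lower mean signals in induced cells, by modest amounts, and no single gene passed the test. Of 45 genes, 43 had a negative estimate (95.6%, against 52.4% of all genes), and the median change was -0.55, a 1.47-fold lower signal, against -0.01 over all genes. These genes and the lists below were chosen with earlier results of these data known, so shares set beside all genes are a description. By limma, 0 of 45 were called lower and 0 higher, where 0.27% of all genes were called lower and 0.479% higher (0.749% in either direction). Adjusted p ran from 0.0818 (Dbf4) to 0.963 (Dut). At an unadjusted p under 0.05, 24 of 45 were lower and 0 higher, against 9.51% of all genes lower and 8.13% higher. All 3 induced arrays lay below all 3 control arrays for 19 of 45 genes, against 13.4% of all genes, and above them for 0, against 12.0%. Without control replicate 3 the induced arrays lay below the control arrays for 41 of 45 genes, against 17.9% of all genes, and without induced replicate 2 for 28, against 18.4%, with 0 of the 45 called in either fit. Control replicate 3 was the lowest control array for every replication gene, so the 41 follows in part from its removal. Rrm2, Dbf4 and E2f8 were at least 2-fold lower by estimate (3 of 45, against 2.17% of all genes) and 0 were at least 2-fold higher (against 2.81%). The mean over the 45 genes was 7.35 ± 0.20 in induced and 7.88 ± 0.34 in control cells (SD, n = 3 arrays each). In bulk RNA, fewer cells in S phase and less of each RNA per cell cannot be told apart.

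**Figure D2:**
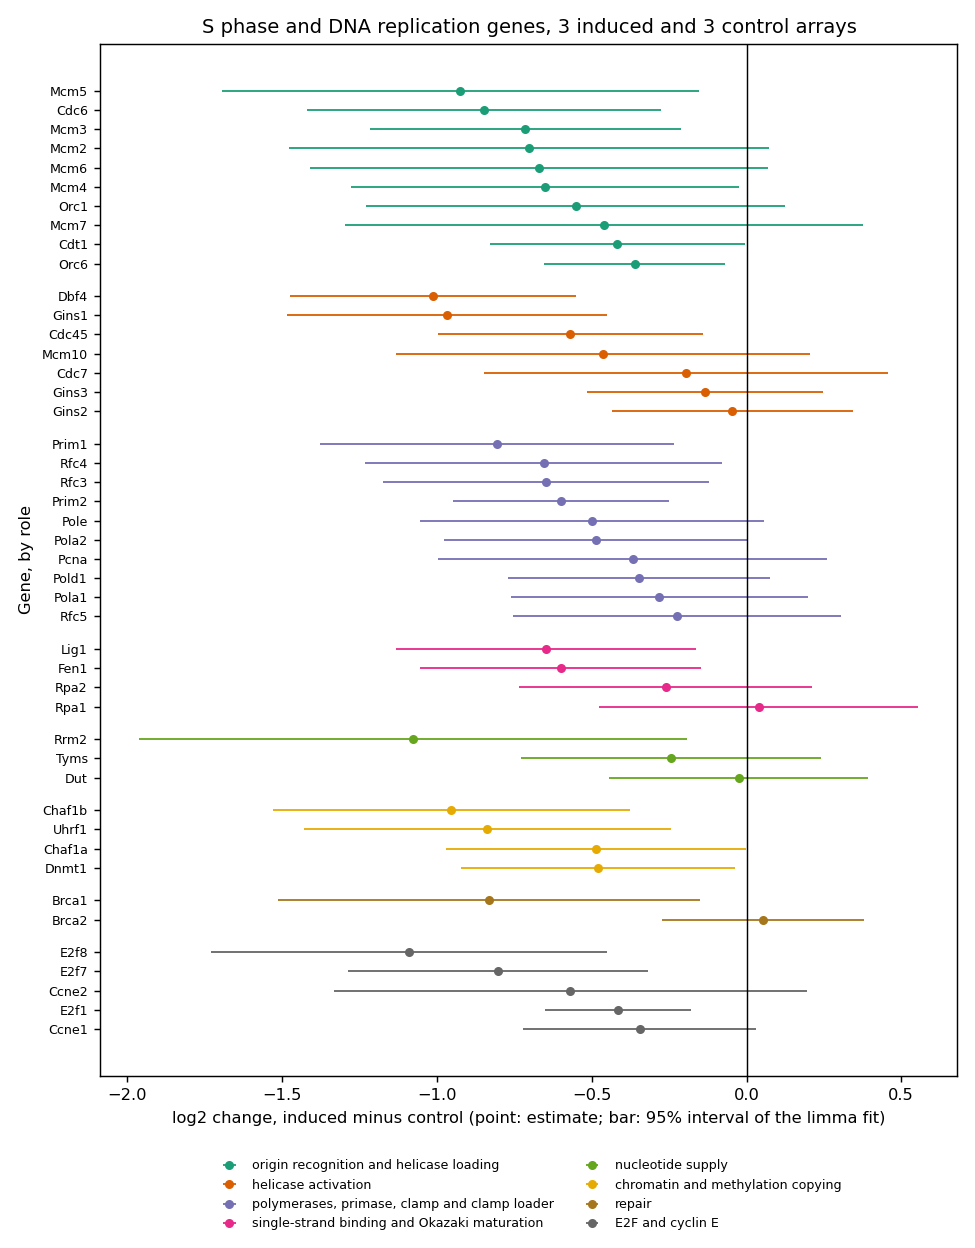
Change of each of the 45 replication genes, induced minus control in log2 units (x axis), grouped by role. Points are estimates and bars the 95% intervals of the limma fit over 3 arrays a group. All but Rpa1 and Brca2 lie below 0.

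Over the 45 genes, array means had an SD of 0.20 in induced and 0.34 in control cells, beside a median change of -0.55. Control replicate 3 stood lowest among the control arrays. This array was the lowest of the 3 control arrays for 45 of 45 replication genes, while over all genes it was the lowest for 34.3%. Its median difference from control replicates 1 and 2 was -0.58 over the replication genes and -0.00 over all genes. The lowest of the 3 induced arrays was induced replicate 3 for 34 of 45 genes (all genes 41.3%). The highest was induced replicate 2 for 37 of 45 (all genes 29.9%). Induced replicate 2 lay above control replicate 3 for 25 of 45 genes, but above control replicate 1 for 1 and above control replicate 2 for 2.

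**Figure D3:**
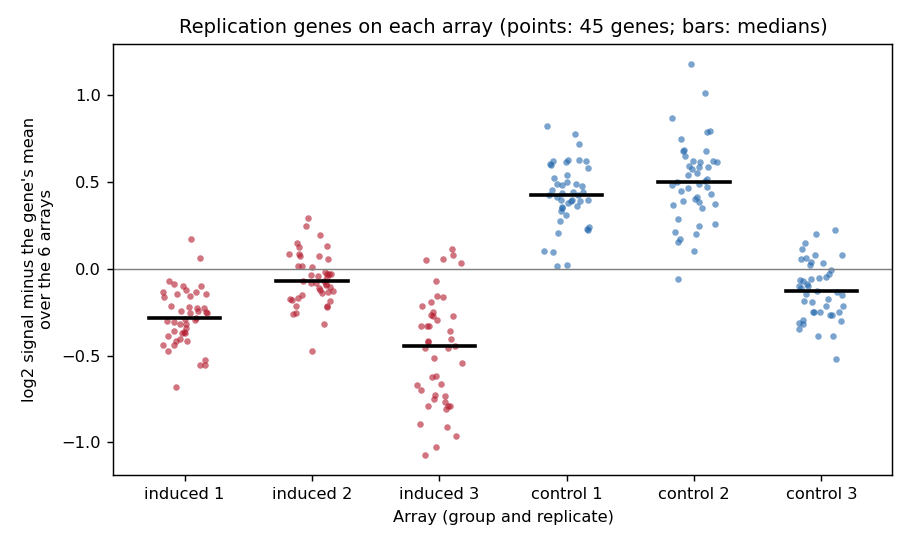
Signal of the 45 replication genes on each array, as log2 units from the gene's own mean over the 6 arrays (y axis). Points are genes and bars medians, which sit at -0.29, -0.07 and -0.45 on induced replicates 1 to 3 and at 0.43, 0.50 and -0.13 on control replicates 1 to 3.

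Without both replicate 3 arrays, replicates 1 and 2 of each group separated for most genes and part of the list passed. Control replicate 3 was the lowest control array for all 45 genes, so this separation follows in part from its removal. Both induced arrays were below both control arrays for 41 of 45 genes (91.1%, against 24.0% of all genes), and the median change was -0.65. In that fit 14 of 45 genes were called lower and 0 higher, against 1.78% of all genes called lower and 2.29% higher. With any single array left out, 0 of 45 were called lower. The 14 were Gins1, Dbf4, E2f8, Chaf1b, Brca1, Mcm5, Uhrf1, Mcm10, Mcm6, Mcm3, Chaf1a, Prim2, Pole and Fen1. The largest of these falls was that of E2f8, by 1.24 (adjusted p = 0.0130). Arrays were also weighted by how closely they followed the fit of their group (limma's array weights), which gave induced replicate 3 a weight of 0.273. With these weights 5 genes were called lower and 0 higher, against 2.5% of all genes called lower and 2.61% higher. The 5 were Dbf4, Gins1, E2f7, Prim2 and E2f1, and 3 of them were among the 14.

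Macrophage and leukocyte markers were also lowest on average on the replicate 3 arrays. The 12 markers averaged 7.92, 7.42 and 5.99 in induced replicates 1 to 3, against 6.78, 7.14 and 5.61 in control replicates 1 to 3. Their summed linear signal ran from 1904 to 6294 in induced and from 1013 to 3545 in control cells, and 0 of 12 were called. Marker by marker, replicate 3 was the lowest induced array for 10 of 12, the lowest control array for 10 of 12, and the lowest of both groups for 9. Cd68, a lysosomal protein of macrophages, went the other way in induced cells, with 8.92, 8.38 and 9.45 in induced replicates, against 8.01, 8.60 and 5.96 in control replicates. Lyz2, a lysozyme of macrophages and the marker with the widest spread, read 11.56, 10.99 and 4.44 in induced replicates, against 9.31, 10.19 and 4.71 in control replicates. RMA gives no detection call, so no marker is at 0. The part of these markers in the values of the replication genes was not tested.

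Among the genes that bind origins and load the helicase, all 10 had negative estimates, from -0.93 to -0.36, with a median of -0.66. Mcm5, a subunit of the helicase ring, had 8.17, 8.29 and 7.38 in induced replicates 1 to 3, against 9.23, 9.06 and 8.32 in control replicates 1 to 3. The groups did not overlap, yet the highest induced and the lowest control array differed little. Its change was -0.93 (SE 0.32, adjusted p = 0.221), a 1.90-fold lower signal.

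Cdc6, the ATPase that helps to load the ring, had 6.26, 6.80 and 6.12 in induced cells, against 7.43, 7.43 and 6.85 in control cells. Its change was -0.85 (SE 0.24, adjusted p = 0.157), and all induced arrays lay below control replicate 3 as well. Orc6, a subunit of the origin recognition complex, had the smallest estimate of the loading genes, -0.36 (SE 0.12, adjusted p = 0.211). It had 7.15, 7.27 and 6.95 in induced cells, against 7.53, 7.51 and 7.42 in control cells, and control replicate 3 was close to the other control arrays here.

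The remaining ring genes were alike in size: Mcm2 stood at -0.70, Mcm3 at -0.71, Mcm4 at -0.65, Mcm6 at -0.67 and Mcm7 at -0.46, with adjusted p from 0.169 to 0.557. Mcm3 was the other ring gene whose groups did not overlap. Both features of Mcm3 pointed the same way (-0.71 and -0.65), as did both of Mcm4 (-0.65 and -0.58). Orc1, the ATPase subunit of the origin complex, stood at -0.55 and Cdt1, the partner of Cdc6 in loading, at -0.42. For Orc1 control replicate 3 read 6.05, within the induced range of 5.95 to 6.33.

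Helicase activation held both some of the largest and some of the smallest differences, with a median of -0.46 over 7 genes. Dbf4, the activating subunit of the Cdc7 kinase, read 6.68, 6.84 and 6.43 in induced replicates, against 7.78, 7.90 and 7.30 in control replicates. Every induced array was at least 0.4 below every control array, and the change was -1.01 (SE 0.19, 95% interval -1.47 to -0.55, adjusted p = 0.0818). This was the smallest adjusted p among the 45 genes.

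Gins1, a subunit of the GINS complex, read 6.38, 6.65 and 6.24 in induced replicates, against 7.69, 7.53 and 6.96 in control replicates. Its change was -0.97 (SE 0.22, adjusted p = 0.106), and the groups did not overlap. The other GINS subunits measured overlapped between groups. Gins2 read 6.22, 6.29 and 6.38 in induced cells, against 6.42, 6.58 and 6.02 in control cells, a change of -0.05 with a 95% interval of -0.43 to 0.34. Gins3 stood at -0.13 (adjusted p = 0.730). Gins4, measured in the list of other replication factors, stood at -0.64 (adjusted p = 0.275).

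Cdc45, which joins GINS on the helicase, stood at -0.57 (adjusted p = 0.186) with groups that did not overlap. Mcm10, a factor needed to start unwinding, stood at -0.46. It read 6.85, 7.10 and 7.22 in induced cells, against 7.69, 7.98 and 6.90 in control cells, so control replicate 3 lay within the induced range. Cdc7, the kinase subunit itself, stood at -0.20 (adjusted p = 0.775), with 6.49 in control replicate 3 below all 3 induced arrays (6.74 to 7.14).

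Primase, polymerase, clamp and clamp loader genes were all negative too, 10 of 10, with a median of -0.49. Prim1, the catalytic subunit of primase, had 8.93, 9.38 and 8.58 in induced replicates, against 9.91, 9.95 and 9.45 in control replicates. Its change was -0.81 (SE 0.24, adjusted p = 0.170). Induced replicate 2 came within 0.1 of control replicate 3, so the separation was narrow. Its second feature gave -0.71. Prim2, the large primase subunit, was steadier within groups and stood at -0.60 (SE 0.15, adjusted p = 0.121), without overlap.

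Rfc4, a clamp loader subunit, had 6.70, 7.35 and 7.11 in induced cells, against 7.98, 7.86 and 7.28 in control cells. Its change was -0.66 (SE 0.24, adjusted p = 0.239), and induced replicate 2 lay above control replicate 3. Rfc5, another subunit of the loader, had the smallest estimate of these genes, -0.22 (adjusted p = 0.664). It had 7.24, 7.42 and 7.01 in induced cells, against 7.67, 7.69 and 6.99 in control cells, and the groups overlapped.

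Rfc3 stood at -0.65 and Pcna, the sliding clamp, at -0.37 (adjusted p = 0.528). Of the polymerase genes, Pole, the catalytic subunit of the leading strand enzyme, stood at -0.50, Pola2 at -0.49, Pold1 at -0.35 and Pola1 at -0.28. The groups overlapped for each of these 6.

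Lig1 and Fen1, which seal and trim Okazaki fragments, had lower means without overlap, while the single-strand binding genes did not. Lig1 had 7.54, 7.83 and 7.49 in induced replicates, against 8.36, 8.57 and 7.87 in control replicates, a change of -0.65 (SE 0.20, adjusted p = 0.185). Fen1 had 6.56, 6.63 and 6.23 in induced cells, against 7.22, 7.28 and 6.73 in control cells, a change of -0.60 (SE 0.19, adjusted p = 0.189). Rpa1, the large subunit of the single-strand binding complex RPA, had 7.51, 8.06 and 7.93 in induced cells, against 8.04, 7.92 and 7.43 in control cells. The groups overlapped over nearly their whole range, and the change was 0.04 with a 95% interval of -0.48 to 0.56. Rpa2, the next subunit of that complex, stood at -0.26 (adjusted p = 0.555). Rpa3, a subunit measured in the list of other replication factors, stood at -0.52 (adjusted p = 0.305), and its groups overlapped.

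For deoxynucleotide supply, 3 of 5 genes were measured and they differed widely. Rrm2, the small subunit of ribonucleotide reductase, had 10.09, 10.66 and 9.57 in induced replicates, against 11.04, 11.83 and 10.69 in control replicates. Its estimate was -1.08 (SE 0.37, adjusted p = 0.217), a 2.11-fold lower signal. The gap between induced replicate 2 and control replicate 3 was small beside the spread within each group.

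Tyms, thymidylate synthase, had 8.79, 9.07 and 9.18 in induced cells, against 9.58, 9.31 and 8.89 in control cells, a change of -0.24 (SE 0.20, adjusted p = 0.591). Dut, the enzyme that clears dUTP, had 6.86, 7.23 and 7.11 in induced cells, against 7.39, 7.02 and 6.87 in control cells, a change of -0.03 with a 95% interval of -0.44 to 0.39. Both overlapped between groups.

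All 4 genes that copy chromatin and methylation had all induced arrays below all control arrays, against 13.4% of all genes. All 4 were lower at an unadjusted limma p under 0.05, against 9.51% of all genes. In Dnmt1 and Chaf1a the groups nearly met, and the unadjusted limma p of Chaf1a was 0.0497. Chaf1b, a subunit of the chromatin assembly factor CAF-1, read 6.71, 6.90 and 6.33 in induced replicates, against 7.63, 7.99 and 7.19 in control replicates. Its change was -0.95 (SE 0.24, adjusted p = 0.129). Uhrf1, which brings the methyltransferase to newly copied DNA, read 7.72, 7.87 and 7.27 in induced cells, against 8.66, 8.72 and 7.99 in control cells, a change of -0.84 (SE 0.25, adjusted p = 0.170). In both genes control replicate 3 sat nearest to the induced arrays.

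Dnmt1, the maintenance methyltransferase, read 8.79, 8.83 and 8.40 in induced cells, against 9.31, 9.30 and 8.85 in control cells, a change of -0.48 (SE 0.19, adjusted p = 0.259). Induced replicate 2 and control replicate 3 nearly met. Chaf1a, the large subunit of CAF-1, stood at -0.49 (adjusted p = 0.283), and there the induced maximum and the control minimum agreed to 2 decimals (6.16).

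The repair genes differed from each other. Brca1, which acts in homologous recombination and at stalled forks, had 6.08, 6.41 and 5.74 in induced replicates, against 7.10, 7.29 and 6.34 in control replicates. Its change was -0.83 (SE 0.29, adjusted p = 0.215), with induced replicate 2 above control replicate 3. Brca2, which loads the recombinase, had 6.02, 5.89 and 6.04 in induced cells, against 5.97, 6.11 and 5.71 in control cells. The groups overlapped, and the change was 0.05 (95% interval -0.27 to 0.38).

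Of the genes that govern entry into S phase, 5 of 6 were measured and all were negative, with a median of -0.57. E2f8, an E2F that represses its targets, had the most negative estimate of the 45 genes. It read 7.04, 6.94 and 6.62 in induced replicates, against 8.04, 8.42 and 7.41 in control replicates, a change of -1.09 (SE 0.27, adjusted p = 0.122) without overlap. E2f7, its close relative, read 7.10, 6.98 and 6.43 in induced cells, against 7.63, 7.82 and 7.46 in control cells, a change of -0.80 (SE 0.20, adjusted p = 0.129), also without overlap.

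Ccne1, which encodes cyclin E1, had the smallest change of this group, at -0.35 (SE 0.16, adjusted p = 0.320). It read 7.79, 7.94 and 7.89 in induced cells, against 8.29, 8.45 and 7.92 in control cells, so induced replicate 2 lay just above control replicate 3. Ccne2, the cyclin E2 gene, stood at -0.57 (adjusted p = 0.416) with overlap.

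E2f1, an activator of S phase genes, was singled out after its values were seen because its control arrays hardly differed. It read 6.80, 6.92 and 6.93 in induced cells, against 7.30, 7.30 and 7.29 in control cells. Here control replicate 3 did not sit below the others by more than 0.02, in contrast to most of the 45 genes. The change was -0.42 (SE 0.10, 95% interval -0.65 to -0.18, adjusted p = 0.116).

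**Figure D4:**
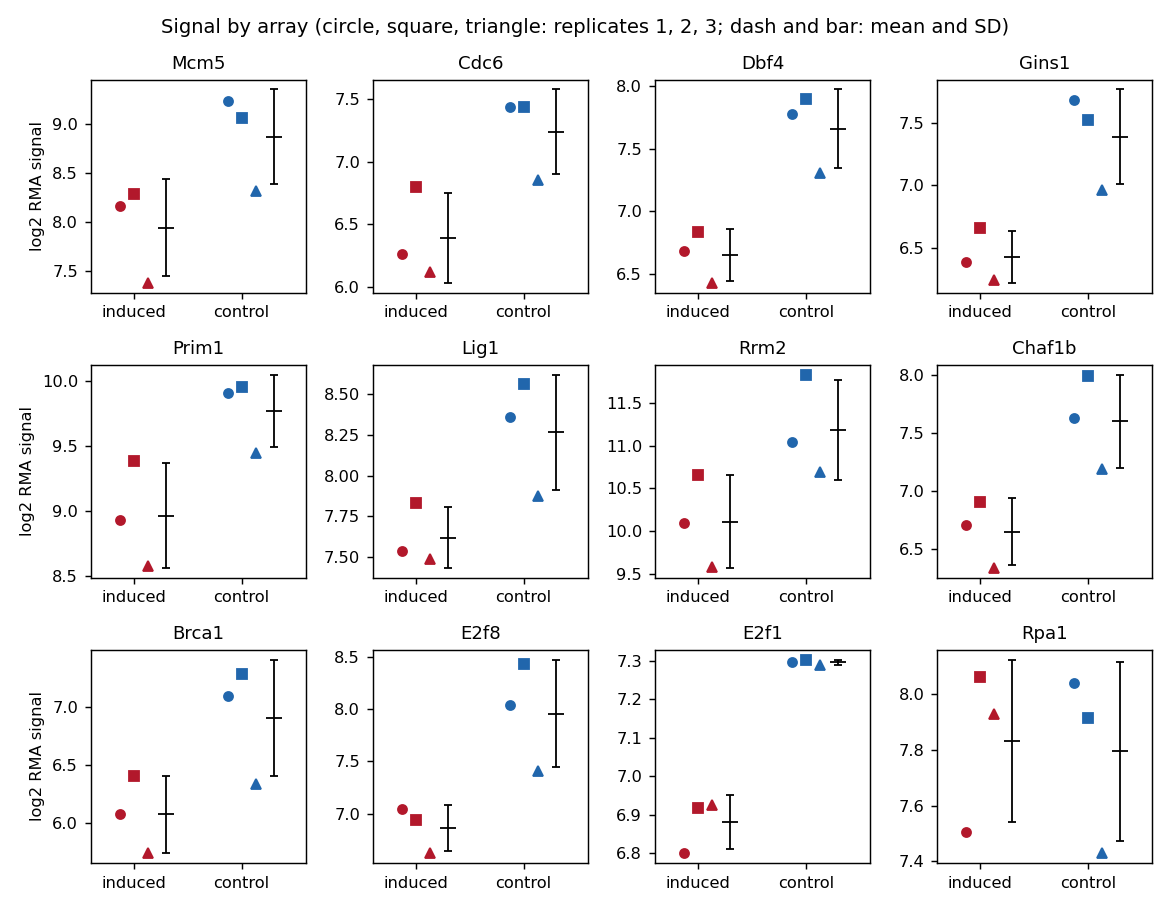
Log2 RMA signal on each array for 12 replication genes, with induced arrays left of control arrays and each gene on its own axis. Symbols mark replicates 1 to 3, and dashes with bars the mean and SD. The control triangle (replicate 3) is the lowest control value in every panel, and in E2f1 the 3 control values span only 7.29 to 7.30.

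Genes with and without the E2F consensus covered overlapping ranges of change. The 16 genes with a match had a median change of -0.57 (range -0.97 to -0.13), and the 22 with a window but no match had a median of -0.47 (range -1.01 to 0.05). The 7 genes without a window (E2f8, Rrm2, Cdc6, Mcm4, Ccne2, Orc1 and E2f1) are in neither range. Of these, E2f8 (-1.09) and Rrm2 (-1.08) had the most negative estimates of the 45 replication genes. Dbf4 was among the genes with a window but no match, and Gins3 among those with a match. The medians of -0.57 and -0.47 are a description, and no test was made of their difference.

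Other replication factors, from a list of 65 of which 60 were measured, leaned the same way but less uniformly: 43 were negative and 17 positive, with a median of -0.27. None was called by limma (0 lower and 0 higher, against 0.749% of all genes in either direction). At an unadjusted p under 0.05 there were 20 of 60 lower and 3 higher, against 9.51% and 8.13% of all genes. The most negative was Ccna2, which encodes the cyclin of S phase and G2, with 9.16, 9.20 and 8.49 in induced replicates, against 10.22, 10.54 and 9.90 in control replicates. Its change was -1.27 (SE 0.25, adjusted p = 0.0846). Pole2, a polymerase epsilon subunit, had 5.48, 5.79 and 5.32 in induced cells, against 6.72, 7.03 and 5.99 in control cells, and stood at -1.05 (adjusted p = 0.142). As in the 45 genes, control replicate 3 was its lowest control array. Top2a, a topoisomerase, had 8.83, 9.07 and 8.05 in induced cells, against 9.57, 10.09 and 9.39 in control cells, and stood at -1.03 (adjusted p = 0.169). Asf1b, a histone chaperone, had 7.83, 7.97 and 7.62 in induced cells, against 8.74, 9.19 and 8.24 in control cells, and stood at -0.91 (adjusted p = 0.144). The groups did not overlap for any of these 4, which were picked for the largest changes. Over the list, all induced arrays lay below all control arrays for 12 of 60 genes, against 13.4% of all genes. They lay above them for 7 of 60, against 12.0% of all genes. The origin complex genes of this list, singled out after their values were seen, pointed the other way from Orc1 and Orc6: Orc2 stood at 0.31, Orc3 at 0.34, Orc4 at 0.37 and Orc5 at 0.35, with adjusted p from 0.200 to 0.525. For Orc3, Orc4 and Orc5 all induced arrays lay above all control arrays, and for Orc2 the groups overlapped.

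Regulators upstream of S phase were split. Of 28 E2F, pocket protein and CDK regulator genes 25 were measured, 13 negative and 12 positive, with a median of -0.04. None was called (0 of 25, against 0.749% of all genes). At an unadjusted p under 0.05 there were 6 of 25 lower and 3 higher, against 9.51% and 8.13% of all genes. All induced arrays lay below all control arrays for 6 of 25, against 13.4% of all genes, and above them for 5, against 12.0%. Cdkn2c, an inhibitor of the cyclin D kinases, had 9.47, 9.34 and 10.88 in induced cells, against 8.01, 7.98 and 7.55 in control cells. All induced arrays were above all control arrays, and the change was 2.05 (SE 0.41, adjusted p = 0.0869). Mybl2, a partner of the MuvB complex, had 7.91, 8.03 and 7.77 in induced cells, against 8.73, 9.50 and 8.41 in control cells, and stood at -0.98 (adjusted p = 0.153). Rbl1, a pocket protein whose gene is itself an E2F target, had 7.49, 7.71 and 7.24 in induced cells, against 8.42, 8.58 and 8.04 in control cells, and stood at -0.87. Neither overlapped between groups. Ccnd1, the cyclin D1 gene, had 7.57, 7.73 and 7.40 in induced cells, against 9.16, 7.77 and 8.20 in control cells, and stood at -0.81 (adjusted p = 0.285). Its groups did not overlap either, although induced replicate 2 came within 0.04 of control replicate 2.

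Mitosis genes were also lower on the induced arrays, by larger estimates. All 18 measured were negative, with a median of -1.11, and 1 was called lower by limma, against 0.27% of all genes. This was Kif23, a kinesin of cytokinesis, which fell by 1.28 (SE 0.18, adjusted p = 0.0424). This call was lost when any 1 array other than induced replicate 3 was left out. Its values were 7.61, 7.76 and 7.25 in induced cells, against 8.70, 9.08 and 8.68 in control cells. The list averaged 7.87, 8.15 and 7.39 in induced replicates, against 8.84, 9.22 and 8.58 in control replicates, so every control array stayed above every induced array. For the 45 replication genes the same averages were 7.34, 7.55 and 7.14 in induced replicates, against 8.04, 8.12 and 7.49 in control replicates, and control replicate 3 lay between induced replicates 1 and 2. No test was made of the difference between the lists.

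**Figure D5:**
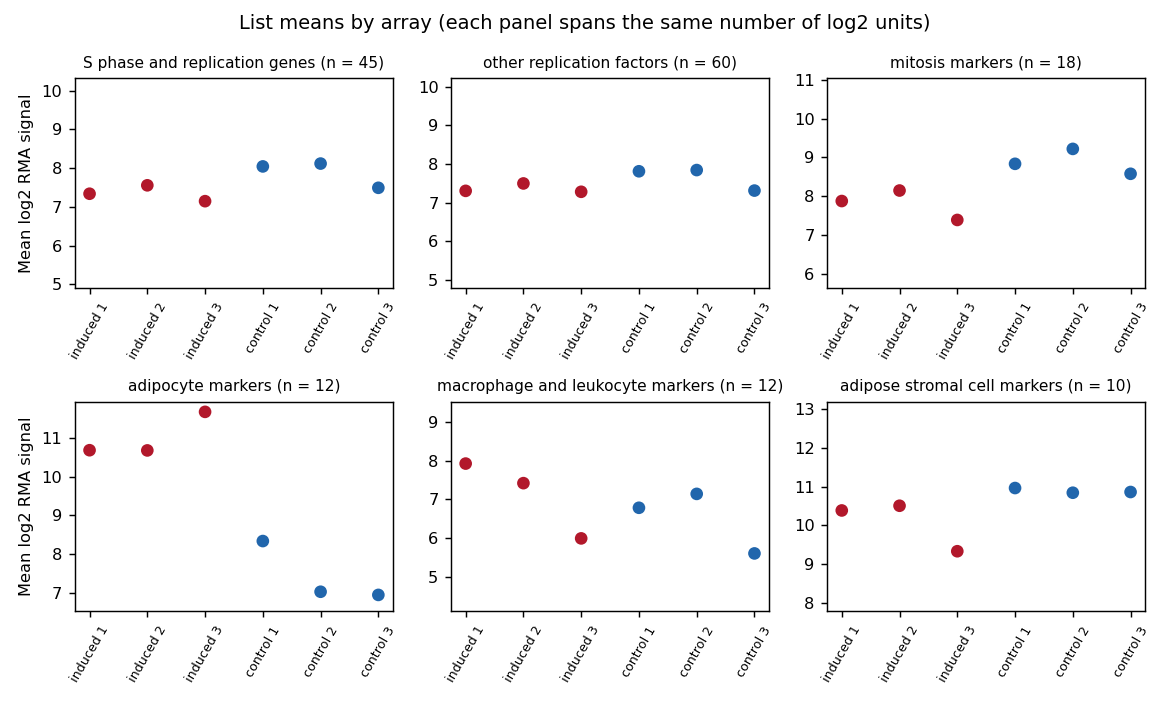
Mean log2 RMA signal on each array of 6 gene lists, each panel spanning the same number of log2 units, with induced arrays left of control arrays. Control replicate 3 lies among the induced arrays for the replication genes and above them for the mitosis markers, and the replicate 3 array of each group is the lowest for the macrophage and leukocyte markers.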

How the data were processed

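The deposited values are log2 signals made by the authors with RMA, per the submitters' processing notes; the version, annotation and build are not given in the sources used here. The log2 scale was read from the values (no array exceeded 13.55). RMA includes quantile normalization, so a shift shared by all genes would not show. With arrays there is no sequencing depth, and precision is limited by how many there are. The table held 36685 features: 18511 with 1 gene symbol, 575 with several (not used) and 17599 with none, giving 18166 genes. All 45 replication genes kept their symbol in the GRCr8 gene table.

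The group contrast was fitted by limma 3.58.1 under R 4.3.3 (lmFit, eBayes, two-sided, no block, 4 residual and 2.65 prior degrees of freedom). An exact permutation of 3 against 3 arrays cannot give p below 0.1, so none is reported. Before use, the fit was tested on simulated data, in which a known set of genes was changed by known amounts. The genes and lists were chosen with earlier results of these data known. Values in all 6 arrays are given for the 2 largest and the smallest change in each role, and, from the lists of other replication factors, regulators and mitosis genes, for called genes or else the 4 largest changes. Cell type marker lists are given by means and sums. Outside these rules, Mcm10, E2f1 and the markers Cd34, Cd68 and Lyz2 are also given in all 6 arrays. Alternatives left out each array or both replicate 3 arrays, and changed the block, feature choice, filter, weights, prior and scaling.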

Additional observations from a re-analysis of the deposited data

How the results depend on the processing

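Under 14 alternatives the median change of the replication genes stayed negative (-0.76 to -0.41), 41 of 45 genes had a negative estimate in each alternative that fitted them (4 genes were absent from the one limited to brighter genes), and 0 were called higher. With 1 array left out, 0 were called lower each time, genes without overlap ranged from 19 to 41 (17.7% to 20.1% of all genes; the 41 without control replicate 3, the lowest control array for all 45), called other replication factors from 0 to 1, called regulators from 0 to 1, called mitosis genes from 0 to 3 and all called genes from 2 to 557. Without both replicate 3 arrays, 14 replication genes, 11 other factors, 2 regulators, 11 mitosis genes and 740 genes in all were called, and 41 replication genes had no overlap. Array weights gave 5, 2, 5, 12 and 929 calls in that order. Mitosis calls were 0 and all calls 69 with every feature tested alone, 0 and 12 with the replicate block, and 2 mitosis genes were called among brighter genes only. The E2F consensus was present for 26.3% of genes on the gene's strand alone. Signs changed only for the 4 genes nearest to 0. Leaving out 1 array moved Brca2 between -0.058 and 0.14, Dut between -0.14 and 0.12, Gins2 between -0.20 and 0.072 and Rpa1 between -0.14 and 0.20. Array weights put Brca2 at -0.0079 and Rpa1 at -0.036, and leaving out both replicate 3 arrays put them at -0.086 and -0.19. The cause of these changes was not tested beyond the fewer arrays or features used.

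The replicate block changed no call among the replication genes (0 of 45). Their median SE was 0.146 with the block and 0.216 without it (all genes 0.147 and 0.152). The SE was smaller with the block for 37 of 45 replication genes, against 43.9% of all genes. At an unadjusted limma p under 0.05, 30 of 45 were lower with the block and 24 without it. Over all 18166 genes these counts were 1611 and 1728. Over the replication genes, array medians ran in the same order in both groups, with replicate 2 highest and replicate 3 lowest. Over all genes, deviations from the group means correlated at r = 0.02, 0.12 and 0.15 for numbers 1 to 3. In these correlations over all genes, induced replicates 2 and 3 matched their own number best and induced replicate 1 matched control replicate 2 (r = 0.12). Pairing was thus not established, and the labels do not say what the numbers share.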
